A study of Mus musculus with 7 samples.

Results

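Promoters of long noncoding RNA (lncRNA) genes were examined for DNase hypersensitivity in cultured mouse podocytes. A lncRNA promoter was the transcription start site (TSS) with 500 nt on either side, for genes of the type lincRNA or antisense on chromosomes 1 to 19 of mm10 in GENCODE vM21, kept where the window lay more than 2500 nt from every protein-coding TSS. This left 6426 of the 8122 lincRNA and antisense genes on these chromosomes, of which 4681 were lincRNA and 1745 antisense genes, and the other 1696 lay too near a coding TSS. They were set beside the promoters of 20807 protein-coding genes and beside 2393365 tiles of the same length that cover these chromosomes, coding promoters included. Windows of 229 members overlapped that of another member, so members are not all separate pieces of DNA.

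Podocytes are the epithelial cells that cover the capillaries of the kidney's filter. The cells were a conditionally immortalised line that had been differentiated in culture, and were compared in NG (5 mM glucose), in HG+NT (25 mM glucose and 50 nM of a non-targeting mimic) and in HG+miR-93 (25 mM glucose and 50 nM of a mimic of miR-93), each for 36 h after growth arrest in low serum. NG cells received no mimic, so that NG against HG+NT differs in glucose and in transfection, which cannot be told apart. There were 2 replicate libraries per condition, but the peaks appear to have been called on pooled replicates, with 1 joint list per condition, and 1 library of naked genomic DNA digested with DNaseI served as input for the 3 conditions. No spread between replicates can be had, no test was made, and intervals on fragments and shares cover counting error only.

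DNaseI cuts DNA where nucleosomes are absent or loose, so a run of cuts at a TSS marks open chromatin. Promoters rich in CpG dinucleotides tend to be open in most cell types, while CpG-poor promoters tend to be open only where they are used, and many lncRNA genes are expressed in few tissues and at low levels. Some lncRNA genes carry miRNAs or small nucleolar RNAs (snoRNAs) in their transcripts, so their promoters also drive these small RNAs.

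The lists hold 1036304 peaks in NG, 846027 under HG+NT and 900109 under HG+miR-93, with a median of 6, 10 and 12 fragments at the summit, and they include peaks whose fold over the input is below 1. A peak overlapped 6421 of the 6426 lncRNA promoters in each list (99.9%), although the summit of the strongest overlapping peak lay inside the window at 37.3%, 33.6% and 35.3% of them. Peaks past a −log10 q of 2 had a summit in the window of 1 lncRNA promoter in NG, 1 under HG+NT and 0 under HG+miR-93. For this reason hypersensitivity was read in 3 ways. A strong summit is that of one of the 20000 peaks with the highest −log10 p of a list. The lowest −log10 p among these was 1.81 in each list, uncorrected for the number of peaks. Strong thus names a rank within the list. The percentile ranks the highest fold of any peak overlapping a window, here called its strongest peak, among the 27207 lncRNA and coding promoters with a peak in all 3 lists. The pileup is the number of fragments at the summit, recovered from fold and −log10 p and scaled to the depth of the input. Pileups are given for the strongest peak. Ranks by pileup instead take the overlapping peak with the most fragments, which can be another peak.

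As a check of the cells, coding promoters of 6 podocyte genes (*Nphs1*, *Synpo*, *Podxl*, *Actn4*, *Cd2ap* and *Ptpro*) had median percentiles of 54.6 in NG, 71.6 under HG+NT and 65.5 under HG+miR-93, with a range in NG from 12.5 to 92.8. Of 6 markers of other cells, 5 were found by symbol in the annotation, and their medians were 8.32, 42.1 and 45.4. The podocyte promoters were higher at the median in each list, but with single podocyte promoters below those of other cells. The highest marker of other cells stood at 27.2 in NG, 73.4 under HG+NT and 85.5 under HG+miR-93. The CpG content of the 2 groups was not compared, so the order of the medians does not by itself identify the cells.

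The lncRNA promoters that carried a strong summit in all 3 lists were 15 in number. They were chosen after their values were seen. The stretches below run 60 nt to either side of the summit, at the median position of the 3 lists, for the 5 of these whose summits fell within 150 nt of each other and for 6720427I07Rik, the host of a let-7 cluster, whose summits spread over 218 nt. They are shown because strong summits of the 3 conditions fell close together there. Sequences are from the GRCm38.p6 reference, in the direction of the lncRNA, and capitals mark a GC box (GGGCGG, either strand).

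6720427I07Rik, chr13:48546365-48546485, minus strand: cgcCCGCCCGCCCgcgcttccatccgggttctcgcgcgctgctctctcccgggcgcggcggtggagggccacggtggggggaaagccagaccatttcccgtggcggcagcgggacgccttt
Gm20732, chr15:68363184-68363304, minus strand: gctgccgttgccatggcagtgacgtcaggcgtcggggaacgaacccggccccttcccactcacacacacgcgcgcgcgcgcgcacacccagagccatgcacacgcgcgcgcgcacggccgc
Rab10os, chr12:3235682-3235802, plus strand: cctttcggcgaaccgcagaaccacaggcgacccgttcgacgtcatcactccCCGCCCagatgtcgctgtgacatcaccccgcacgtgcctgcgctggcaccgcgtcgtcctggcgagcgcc
Gm32618, chr15:32778818-32778938, plus strand: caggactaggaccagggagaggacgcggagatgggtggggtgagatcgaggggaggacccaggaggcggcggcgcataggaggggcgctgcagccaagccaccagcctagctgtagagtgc
Gm10010, chr6:128200603-128200723, minus strand: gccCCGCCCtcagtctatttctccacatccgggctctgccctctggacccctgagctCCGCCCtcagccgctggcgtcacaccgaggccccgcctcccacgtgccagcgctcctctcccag
Gm47469, chr13:74563927-74564047, minus strand: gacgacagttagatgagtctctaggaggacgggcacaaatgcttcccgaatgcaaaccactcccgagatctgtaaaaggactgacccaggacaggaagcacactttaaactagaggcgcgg

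GC boxes were found in 6720427I07Rik, Rab10os and Gm10010. The stretches of Gm20732, Gm32618 and Gm47469 hold none of the 5 motifs searched here. GC content was 75.2% at 6720427I07Rik, 73.6% at Gm20732, 71.1% at Gm10010, 68.6% at Rab10os and 67.8% at Gm32618. Gm47469 stood apart from them at 52.1%.

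Both miRNA hosts among the 15 carry well-known families. The transcript of 6720427I07Rik (a lincRNA, chr13:48532905-48546500, minus strand, TSS 32930 nt from the nearest coding TSS) contains *Mirlet7a-1*, *Mirlet7f-1* and *Mirlet7d*, members of the let-7 family that restrains growth genes in differentiated cells. The mature sequences below are from RefSeq (GRCm38.p6) with the seed, bases 2 to 8, in capitals.

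mmu-let-7a-5p: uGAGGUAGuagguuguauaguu
mmu-let-7f-5p: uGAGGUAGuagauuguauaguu
mmu-let-7d-5p: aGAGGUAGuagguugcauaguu

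These 3 share 1 seed, so that a single promoter stands before 3 miRNAs with the same targeting letters. At this promoter the pileup was 20.1 in NG (95% exact Poisson interval 14.7 to 26.9), 14.8 under HG+NT (11.2 to 19.2) and 15.7 under HG+miR-93 (12.5 to 19.6). The intervals overlap. Its percentile was 99.7, 98.8 and 99.8, and its mean over the lists was the highest of the 650 members that met the conditions for naming, namely the strongest summit inside the window in every list, 1 solution for the fragments in every list and under 50% soft-masked (repeat) bases. Summits lay 179 nt downstream of the TSS in NG, 75 nt downstream in HG+NT and 39 nt upstream in HG+miR-93.

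Gm20732 (a lincRNA, chr15:68340983-68363176, minus strand) contains *Mir30d*, of the miR-30 family, which is known for its part in podocyte maintenance. Its pileup was 13.8 in NG (9.41 to 19.7), 17.9 under HG+NT (13.9 to 22.7) and 13.6 under HG+miR-93 (10.6 to 17.2). The HG+NT value was the highest, with overlapping intervals. The percentile was 93.6, 98.0 and 97.7. Its window had a CpG observed/expected ratio of 1.07, against a median of 0.222 over all lncRNA promoters.

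Rab10os is an antisense gene whose TSS lies 74465 nt from the nearest coding TSS. Its summits fell at 238, 243 and 231 nt downstream of the TSS, within 12 nt of each other. Its pileup was 14.7 in NG (10.1 to 20.7), 12.5 under HG+NT (9.19 to 16.5) and 10.7 under HG+miR-93 (8.05 to 13.9), and the input's local mean at the summit was 3 fragments in each list. Gm32618 had its summits at −33, −26 and −11 nt, directly at the TSS, with pileups of 7.59, 9.61 and 6.61. The 3 lists thus placed the summit of both promoters on nearly the same base, and the intervals of each overlapped between lists.

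The other members of the 15 are given by their pileups. *Lncpint*, a lincRNA induced by p53, had a pileup of 9.83 in NG (6.16 to 14.9), 6.49 under HG+NT (4.20 to 9.58) and 6.22 under HG+miR-93 (4.25 to 8.78), and percentiles of 98.1, 88.8 and 89.2. Gm2885 had 12.1, 14.5 and 11.7, and AC132957.1 had 11.2, 12.5 and 12.2. Gm10010 had 10.3, 14 and 9.52, and percentiles of 57.5, 81.6 and 92.1. Gm47469 had 4.91, 5.19 and 4.08, of which the last was the lowest value of the 15 under any condition. Its −log10 p was 1.81 in NG and HG+miR-93, the lowest of the strong peaks. Gm38399, Gm14321, Gm26863 and Gm15722 lay between 6.80 and 9.87. Gm13816 and Gm39090 had the same values of 6.70, 4.67 and 4.28, with a −log10 p of 1.81 in both HG lists. At Gm15722 the peak of highest fold in NG had its summit at −2206 nt, outside the window, and the strong summit in the window was that of another peak. Of the 15, 13 are lincRNA genes, and no interval of any of them was apart from another list's.

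**Figure D1:**
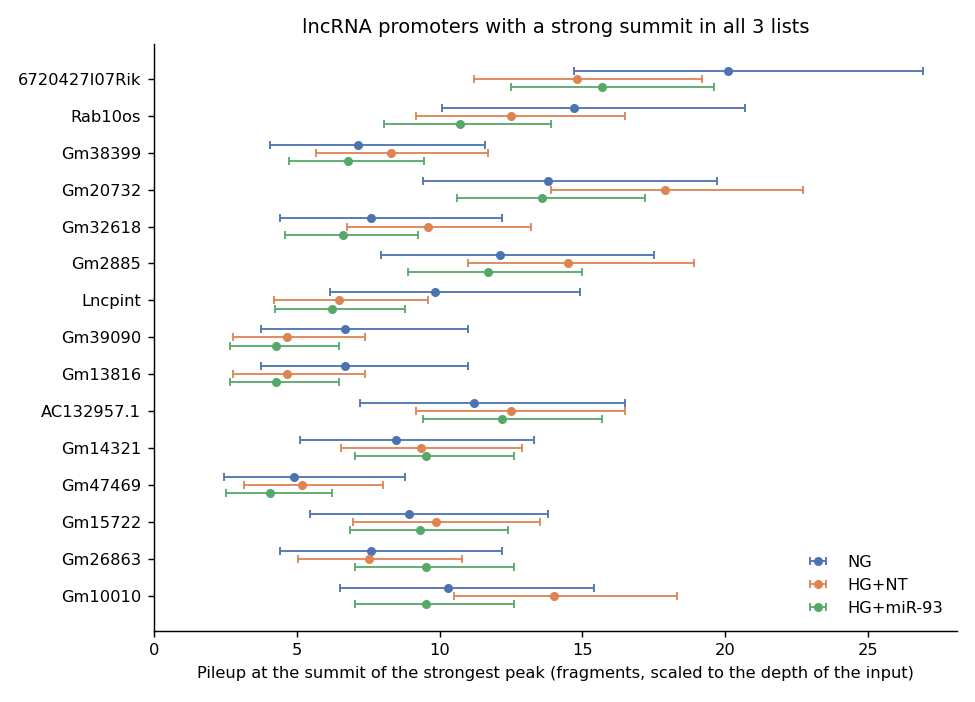
Pileup at the summit of the strongest peak (fragments scaled to the depth of the input) for the 15 lncRNA promoters with a strong summit in all 3 lists, ordered by mean percentile, with NG in blue, HG+NT in orange and HG+miR-93 in green. Bars are 95% exact Poisson intervals, and they overlap between the lists for each gene, with 6720427I07Rik at 20.1 in NG and Gm47469 at 4.08 under HG+miR-93 as the ends of the range.

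Strong summits were found at few lncRNA promoters. They lay in 187 of 6426 windows in NG (2.91%, 95% Wilson interval 2.53 to 3.35), in 162 under HG+NT (2.52%, 2.17 to 2.93) and in 175 under HG+miR-93 (2.72%, 2.35 to 3.15). Of the tiles, 0.827%, 0.821% and 0.822% held one, so the lncRNA share was above the genome's in each list. Of the coding promoters, 25.6%, 17.2% and 12.4% held one, so the lncRNA share was far below theirs and, unlike theirs, moved little between the lists. LincRNA and antisense genes had similar shares, with 2.80% and 3.21% in NG, 2.54% and 2.46% under HG+NT, and 2.76% and 2.64% under HG+miR-93, and overlapping intervals in each list.

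Most strong lncRNA promoters were strong in a single list, as were most strong tiles. Of the 440 with a strong summit in at least 1 list, 371 had it in 1 list, 54 in 2 lists and 15 in 3. Of the 51875 such tiles 45941 had it in 1 list and 1297 in 3, and of the 7176 such coding promoters 4082 had it in 1 list and 1205 in 3. Summits of the 3 lists, at whatever strength, fell within 150 nt of each other in the windows of 194 lncRNA promoters (3.02%, 2.63 to 3.47). Among tiles this share was 2.13% and among coding promoters 14.9%. Over all windows, the lncRNA promoters were thus nearer the genome's level than the coding promoters in how often the lists placed a summit at the same spot. The groups differ in CpG content. At a CpG observed/expected ratio up to 0.2 the share was 1.98% (1.52 to 2.58) for lncRNA promoters, 2.32% for coding promoters and 1.93% for tiles. At a ratio over 0.6 it was 12.6% (8.66 to 17.9), 25.5% and 11.2%.

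Strong summits were more frequent at CpG-rich lncRNA promoters. At an observed/expected CpG ratio over 0.6, 39 of 199 lncRNA promoters had a strong summit in NG (19.6%, 14.7 to 25.7), 20 under HG+NT (10.1%, 6.60 to 15) and 30 under HG+miR-93 (15.1%, 10.8 to 20.7). At a ratio up to 0.2, the share was 1.25%, 1.18% and 1.51% of 2722 promoters. At the same low CpG content, coding promoters did not stand apart, with 1.26%, 1.26% and 1.19%. At a ratio over 0.6 the coding share was above the lncRNA share in NG (45.4%) and in HG+NT (30.7%), while in HG+miR-93 the coding value of 21.2% had an interval from 20.4 to 22 that met the lncRNA interval. Tiles of this CpG content had shares of 22.2%, 15.1% and 11.1%. The lncRNA intervals included the tile share in NG and in HG+miR-93, while in HG+NT the tiles lay just above the interval. These tiles include those at coding promoters. In NG 4693 of the 21178 tiles and 4461 of the 9819 coding windows of this class were strong. The tile share is therefore not that of CpG-rich DNA away from coding promoters, which was not computed. In the lower classes the lncRNA share was above that of tiles. In NG it was 1.25% (0.895 to 1.74) against 0.411% at a ratio up to 0.2, 2.52% (2.01 to 3.16) against 0.895% from 0.2 to 0.4, and 6.49% (4.84 to 8.66) against 2.92% from 0.4 to 0.6. Coding promoters of the latter 2 classes had 5.27% and 21.6% in NG, above the lncRNA promoters of the same CpG content.

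**Figure D2:**
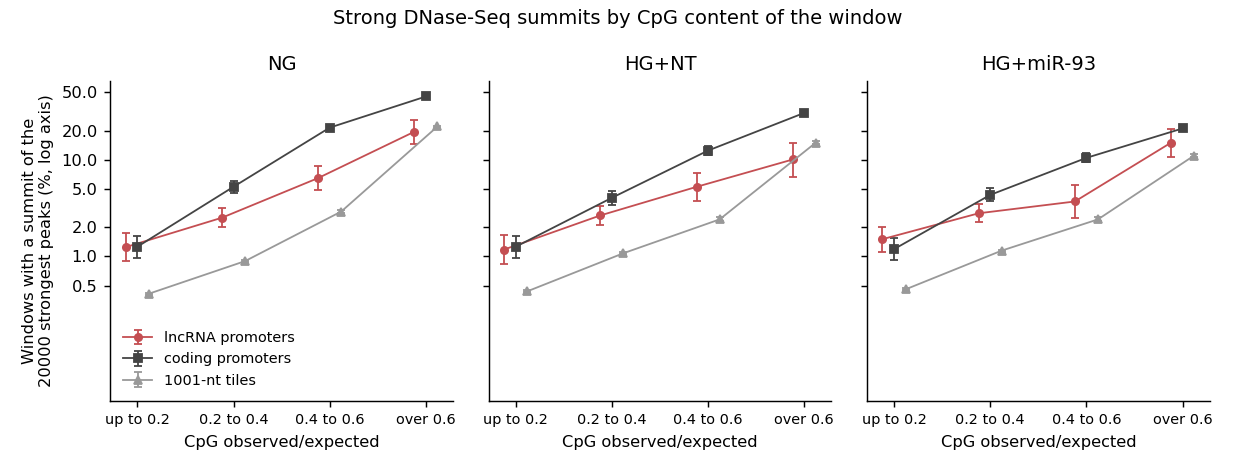
Share of windows with a summit of the 20000 strongest peaks (percent, log axis) against the CpG observed/expected ratio of the window, in 4 classes, for lncRNA promoters (red circles), coding promoters (dark squares) and tiles of the same length (grey triangles) in each list. Bars are 95% Wilson intervals. In NG the lncRNA share climbed from 1.25% to 19.6% and the coding share from 1.26% to 45.4%.

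Other features of the window were compared as well. The median percentile was 38.7 in NG, 43.4 under HG+NT and 45.4 under HG+miR-93 for lncRNA promoters, and 54.3, 52.1 and 51.8 for coding promoters. Windows with 50% or more soft-masked bases, 567 in number, had medians of 30.6, 32.5 and 33.5, and 7 of them (1.23%) had a strong summit in any list, against 7.39% of the other 5859. Antisense genes had medians of 38.2, 47.5 and 49.6, and lincRNA genes 39.2, 42.1 and 45.4. Genes with 2 or more annotated transcripts had a strong summit in any list at 8.95% (7.56 to 10.6), and those with 1 transcript at 6.27% (5.63 to 6.97). By distance from the nearest coding TSS, the share was 8.50% within 10 kb, 7.30% from 10 to 100 kb and 5.50% beyond.

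Where strong summits occurred near a lncRNA TSS, they gathered at it. Within 2500 nt of a lncRNA TSS there were 437 strong summits in NG, 421 under HG+NT and 459 under HG+miR-93. Of these, 41.4% (36.9 to 46.1), 37.8% (33.3 to 42.5) and 37.0% (32.7 to 41.5) lay within 500 nt, a stretch that makes up 20% of the span. At coding TSSs the values were 79.0%, 77.1% and 71.1%. Upstream and downstream were nearly even at lncRNA promoters, with 86 and 95 summits in NG, 80 and 79 under HG+NT, and 79 and 91 under HG+miR-93. Among all peaks of the lists, 23.0%, 24.9% and 25.2% of the summits within 2500 nt lay within 500 nt.

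**Figure D3:**
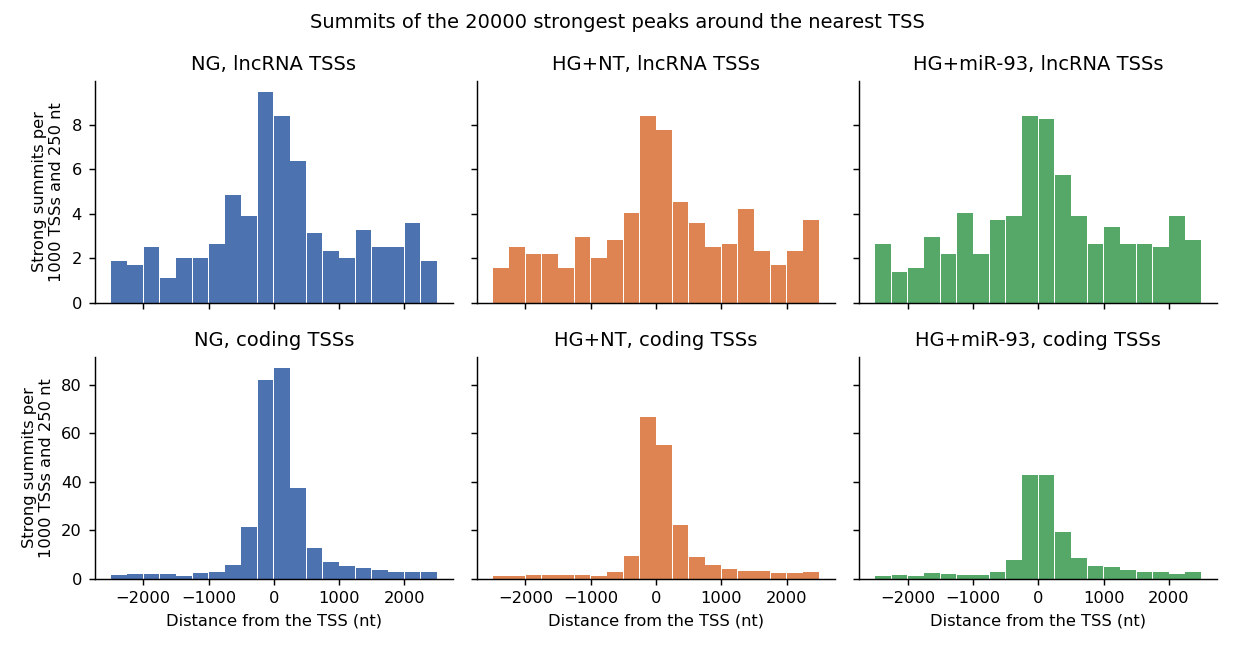
Summits of the 20000 strongest peaks per 1000 TSSs in bins of 250 nt, against the distance from the nearest TSS in the direction of transcription, for lncRNA (upper row) and coding TSSs (lower row) in NG (blue), HG+NT (orange) and HG+miR-93 (green); the rows have different vertical scales. Summits gather at the lncRNA TSS in each list, and 181 of 437 lay within 500 nt in NG.

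Motifs were counted on both strands in the windows, where a match of one motif may overlap that of another. The GC box GGGCGG, bound by Sp and Klf factors, was present in 42.3% (37.7 to 46.9) of the 440 lncRNA windows with a strong summit in any list and in 17.8% of the 5986 with none. It was present in 51.5% of all 27233 promoters and in 61.4% of coding promoters. The TATA-like TATAAA was present in 33.9% of the 440, in 47.5% of the 5986 and in 35.6% of all promoters. The AP-1 motif TGANTCA was present in 32.0% and 28.7%, with overlapping intervals, and in 21.2% of all promoters. CCAAT, bound by NF-Y, was present in 69.8% and 75.7%, and in 71.5% of all promoters. AGNGGGCNC, a core of the CTCF motif, was present in 17.7% and 9.27%, and in 17.7% of all promoters.

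Around the 194 summits shared by the 3 lists, motifs were also counted within 60 nt on either side, a choice made after seeing the data. Of these stretches, 14 (7.22%, 4.35 to 11.7) held TGANTCA, against 4.36% of stretches of the same length around all lncRNA TSSs, which is just inside the lower end of the interval, and against 5.67% (3.20 to 9.87) around the TSSs of the same 194 promoters. At the 3109 shared summits of coding promoters the share was 1.45%. The GC box was present in 12.4% of the 194 (8.46 to 17.7), in 9.79% (6.36 to 14.8) around the TSSs of the same promoters, in 4.26% around all lncRNA TSSs and in 44.7% at shared coding summits. Median GC content was 52.1% around the shared lncRNA summits and 49.6% around all lncRNA TSSs, and its part in the result was not tested. A match is a description of letters and not of a bound factor.

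Among the 72 lncRNA genes that contain an annotated miRNA on their strand, 9 (12.5%, 6.72 to 22.1) had a strong summit in any list, and among all lncRNA promoters 6.85% (6.26 to 7.49). These 9 were named after their values were seen. Beside the hosts of let-7 and miR-30d they are *Meg3*, Gm37245, Smkr-ps, Gm14329, Gm15816, Gm15884 and E130102H24Rik. The last contains *Mir101a*. Its pileup was 9.83 in NG (6.16 to 14.9), 5.97 under HG+NT (3.79 to 8.96) and 5.25 under HG+miR-93 (3.46 to 7.63), with percentiles of 76.2, 17 and 10.3. NG was the highest, and the intervals overlap. Gm15884 contains *Mir200c* and *Mir141*, known for keeping cells epithelial. It had pileups of 3.13 (1.26 to 6.44), 5.19 (3.17 to 8.02) and 6.02 (4.09 to 8.55), with percentiles of 5.15, 77.4 and 96.4. This order was the reverse of that at E130102H24Rik, again with overlapping intervals, and in HG+NT the strongest peak had its summit 2185 nt from the TSS.

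The mature miRNAs of these hosts are given because their promoters moved in opposite directions in rank. Mature sequences were found in RefSeq's table for 8 of the 13 miRNA genes in the 9 hosts, and that of *Mir30d* was not among them.

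mmu-miR-101a-3p: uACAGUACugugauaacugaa
mmu-miR-200c-3p: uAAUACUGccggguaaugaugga
mmu-miR-141-3p: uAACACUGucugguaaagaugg

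The seeds of miR-200c-3p and miR-141-3p differ from each other. Of the 37 lncRNA genes that contain a snoRNA, 4 had a strong summit in any list (10.8%, 4.29 to 24.7). For both kinds of host the interval includes the 6.85% over all lncRNA promoters.

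Hand-written lists of known lncRNAs held 68 symbols, of which 29 are members. The other symbols did not meet the rule or were not matched. The listed members were richer in CpG than lncRNA promoters at large, whose median observed/expected ratio was 0.222. The median was 0.708 for snoRNA hosts, 0.514 for nuclear and regulatory RNAs and 0.476 for kidney-related RNAs. For imprinted RNAs it was 0.462, and for miRNA hosts 0.423. The part of CpG content in the shares below was not tested. Hosts of snoRNAs had 5 members, of which 3 had a strong summit in NG (*Snhg6*, *Snhg12* and *Meg3*) and 0 under HG+NT and HG+miR-93, where 2.91%, 2.52% and 2.72% of all lncRNA promoters had one. The interval of 3 of 5 runs from 23.1% to 88.2%, and at *Meg3* and *Snhg20* no snoRNA was found inside the gene in the annotation. *Snhg6* had pileups of 7.59 (4.42 to 12.2), 4.93 (2.97 to 7.71) and 5.44 (3.62 to 7.86), with summits at 11, −30 and 90 nt. *Snhg12* had 12.1 (7.95 to 17.5), 8.05 (5.47 to 11.4) and 5.25 (3.46 to 7.63), with summits at 210, 6 and 14 nt. At *Snhg12* the NG and HG+miR-93 intervals were apart, with NG the higher. *Snhg20* had percentiles of 97.2, 83.4 and 74.3, but its summits lay 732 to 789 nt downstream of the TSS and outside the window.

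*Epb41l4aos*, also a snoRNA host, went the other way in rank with percentiles of 7.44, 41.4 and 71.8, while its pileup was 6.70, 5.45 and 5.44. The input's local mean at its summit was 6, 3.2 and 2.4 fragments in the 3 lists. *Meg3*, an imprinted RNA expressed from the maternal allele, counts in several lists. Its percentile was 84.5, 61.2 and 18.4 and its pileup 6.25, 3.38 and 3.69, and its summit was inside the window in NG.

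Nuclear and regulatory RNAs had 9 members, with median percentiles of 60, 69.3 and 73.5. Of these, 3 (12.1% to 64.6%) had a strong summit in any list, against 6.85% of all lncRNA promoters, which are poorer in CpG. *Neat1*, the scaffold of paraspeckles, had the highest pileups of these, 14.3 in NG (9.78 to 20.2), 16.6 under HG+NT (12.8 to 21.2) and 11.1 under HG+miR-93 (8.39 to 14.4), and a strong summit in NG and HG+NT. Its percentiles were 63.1, 83.3 and 30.2, and the input's local mean there was 7, 7 and 8 fragments, where the median over lncRNA promoters was 1.68, 1.80 and 1.80. *Malat1*, an abundant RNA of nuclear speckles, had pileups of 12.5, 11.9 and 10.1, with the summit at −1056, −958 and −1050 nt from its annotated TSS, outside the window. Both genes were thus near the top by fragments, at pileup percentiles of 94.9 to 98.7, and lower by fold.

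*Pvt1*, the neighbour of *Myc*, had percentiles of 81.5, 97.1 and 97.4 and a strong summit in both HG lists. Its pileups were 5.81 (3.09 to 9.93), 6.75 (4.41 to 9.89) and 6.22 (4.25 to 8.78), which differ little. *Hotair*, transcribed from the HoxC cluster, had percentiles of 57.3, 96.4 and 24.2 from peaks whose summits lay at −2842, −1259 and −8343 nt. *Miat* had 14.4, 69.3 and 85.5, and 2900097C17Rik (Norad, an RNA that binds Pumilio proteins) 60, 23.6 and 33.5. Neither had a strong summit, and the Norad values come from peaks with summits over 5000 nt downstream.

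Of the 6 imprinted members, *Meg3* alone had a strong summit. *Kcnq1ot1* and *Airn*, antisense RNAs that silence neighbouring genes on the paternal chromosome, had percentiles of 3.78, 77.4 and 62.5 and of 20.8, 73.2 and 67.0. *H19*, the maternally expressed partner of *Igf2*, had 8.88, 34.1 and 79.2. All 3 were lowest in NG by rank, but their pileups did not all follow. *Kcnq1ot1* had pileups of 5.81, 5.19 and 4.28, highest in NG, where the local mean was 6 against 2 in both HG lists. *Airn* had 4.47, 4.15 and 4.47. *H19* had 3.13 (1.26 to 6.44), 3.90 (2.18 to 6.42) and 5.05 (3.30 to 7.40), the one whose pileup moved as its rank did. The intervals overlapped between lists for each of the 3 genes, and 8 of their 9 summits lay outside the window, the exception being that of *Kcnq1ot1* in NG at −232 nt. The 12 kidney-related members, which overlap the other lists, had median percentiles of 48.3, 67.2 and 60.5. Of them, 3 (8.89% to 53.2%) had a strong summit in any list, against 6.85% of all lncRNA promoters, which are poorer in CpG. *Neat1* and *Pvt1* are among the 3 here and among those of the nuclear and regulatory RNAs. The 11 miRNA hosts of the lists had median percentiles of 52.8, 65.4 and 35.8. *Mir17hg*, of the miR-17-92 cluster that is a paralogue of the cluster of miR-93, had 54.3, 79.3 and 35.8, and *Dnm3os*, the host of miR-199a-2 and miR-214, had 8.32, 45.9 and 9.89.

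**Figure D4:**
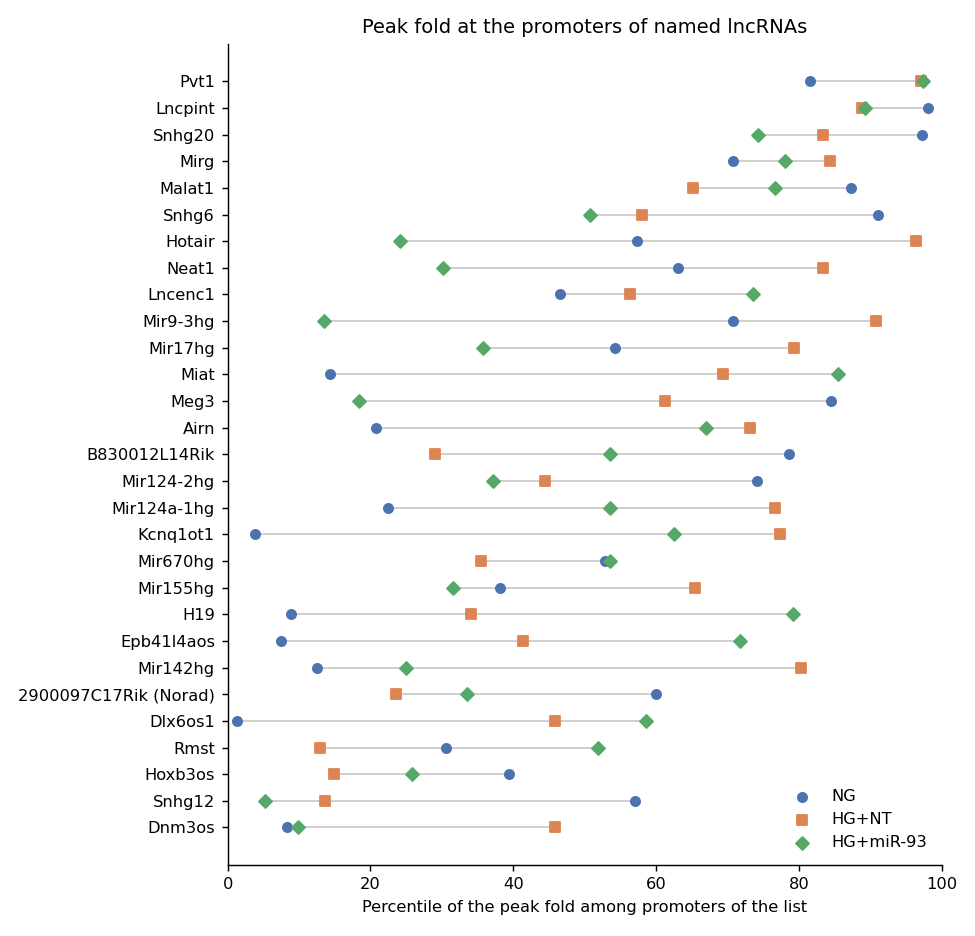
Percentile of the peak fold among promoters of each list for the 29 known lncRNAs, ordered by mean percentile, with NG as blue circles, HG+NT as orange squares and HG+miR-93 as green diamonds, and a grey line from the lowest to the highest. The percentiles of most genes spread widely between the lists, for example from 3.78 to 77.4 at *Kcnq1ot1*, and *Pvt1* and *Lncpint* lie at 81.5 or above in all 3.

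The comparison of NG with HG+NT asked how lncRNA promoters ranked after high glucose and transfection. Percentiles were higher in HG+NT by at least 25 points at 1655 of 6419 lncRNA promoters (25.8%, 24.7 to 26.9), where 21.3% of all promoters passed, and lower at 1150 (17.9%, 17 to 18.9), where 21.3% passed. Ranks by fold were only weakly related between lists. Their Spearman correlation for NG and HG+NT was 0.184 across lncRNA and 0.388 across coding promoters. For HG+NT and HG+miR-93 it was 0.394 and 0.530. Shifts of 25 points are therefore frequent in both directions. The median change was 3.44 points for lncRNA and −1.17 for coding promoters, which are ranked together, so that a rise of one group lowers the other. The fold itself had a median of 1.61 in NG and 1.55 under HG+NT at lncRNA promoters, and of 1.81 and 1.68 at coding promoters, so it was lower under HG+NT for both and by more for the coding promoters. Ranked by pileup, 857 lncRNA promoters were higher and 698 lower, a count that was not made over all promoters. The median percentile by pileup was 30.9 in NG, 32.9 under HG+NT and 29.7 under HG+miR-93. Among antisense genes 29.0% were higher, and among lincRNA genes 24.6%.

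The input's local mean, which depends on the position of the summit, moved with these ranks. Of the promoters that were higher in HG+NT, 63.4% had a lower local mean there, and 37.5% were also higher by 25 points when ranked by pileup. Their summits lay a median of 1295 nt apart between the lists, against 1104 nt over all 6419 lncRNA promoters. Of those lower in HG+NT, 72.8% had a higher local mean. The local mean is in the denominator of the fold, so both shares are partly built into the choice of promoters. The part of the local mean in the result was not tested.

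Chromosomes moved unequally. On chromosomes 8, 15 and 19 the median lncRNA promoter was 17.6 points higher under HG+NT than in NG. Of the 828 there, 43.7% were higher by 25 points and 10.4% lower. These 3 chromosomes were chosen after the data were seen. On the other 16 chromosomes the median moved by 1.15 points, and 23.1% were higher and 19% lower. Chromosome 6, counted among these 16, had 33.5% higher and 14% lower. Values by chromosome were not computed over all promoters. They therefore cannot be read as particular to lncRNA promoters. With HG+miR-93 against NG the medians moved by 22.3 and 3.13 points. In strong summits these 3 chromosomes held 28 lncRNA promoters in NG (3.38%), 42 under HG+NT (5.07%) and 58 under HG+miR-93 (7%), while the others fell from 2.84% to 2.14% and 2.09%. A promoter named on these chromosomes, such as *Pvt1*, *Hotair*, *Malat1*, *Neat1*, Gm32618, Gm20732 or AC132957.1, lies on a group of chromosomes that moved together, and the part of the chromosome in their ranks was not tested.

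The largest changes of percentile from NG to HG+NT, at promoters that met the conditions for naming, were the following. Upward they were AC026385.1 (7.22 to 90.8), Gm13056 (0.858 to 82.5) and Gm29464 (14.4 to 94.4). At AC026385.1 the pileup was 4.47 in NG and 4.93 under HG+NT, while the local mean was 4 in NG and at the background level, the lowest that it can take, in HG+NT. Gm13056 had pileups of 5.36 (2.77 to 9.36) and 9.87 (6.98 to 13.5), with overlapping intervals. Downward they were Gm17196 (88.4 to 4.71), Gm11205 (86.3 to 4.91) and 1700054K19Rik (86.4 to 7.49). Gm11205 had pileups of 10.7 (6.87 to 15.9) and 6.49 (4.20 to 9.58) and a local mean of 3.8 and 7.

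The conditions HG+NT and HG+miR-93 differ in the mimic alone. Percentiles were higher in HG+miR-93 at 1293 lncRNA promoters (20.1%, 19.2 to 21.1), where 17.5% of all promoters passed, and lower at 1036 (16.1%, 15.3 to 17.1), where 17.6% passed. The median lncRNA promoter moved by 2.12 points. Of those higher, 16.7% were also higher by 25 points when ranked by pileup. A lower local mean was found at 78.2%, a share again partly built into the choice. The largest rises were at Gm45605 (11.1 to 96.0), Gm47461 (2.63 to 78.1) and Gm32442 (12 to 86.2), and the largest falls at Gm47270 (80.3 to 3.18), Gm4319 (75 to 0.697) and AC109138.4 (83.4 to 12.5). The pileup of Gm45605 was 5.45 (3.38 to 8.34) and 6.80 (4.74 to 9.46), and that of AC109138.4 was 9.61 (6.77 to 13.2) and 8.55 (6.21 to 11.5), so the fragments of neither were apart.

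HG+miR-93 was also set against NG. Percentiles were higher in HG+miR-93 at 1816 lncRNA promoters (28.3%, 27.2 to 29.4), where 22.3% of all promoters passed, and lower at 1119 (17.4%, 16.5 to 18.4), where 22.6% passed. The comparisons share lists, so their counts are not independent of each other. Of the lncRNA promoters that passed, 61.9% were higher in HG+miR-93. By pileup 794 were higher and 725 lower, or 52.3% higher, and with peaks limited to those with a summit in the window 340 were higher and 130 lower, or 72.3%. Over all promoters, by fold and without this limit, 6075 were higher and 6153 lower. The counts by pileup and with this limit were not made over all promoters. The 52.3% and 72.3% therefore cannot be read as particular to lncRNA promoters.

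**Figure D5:**
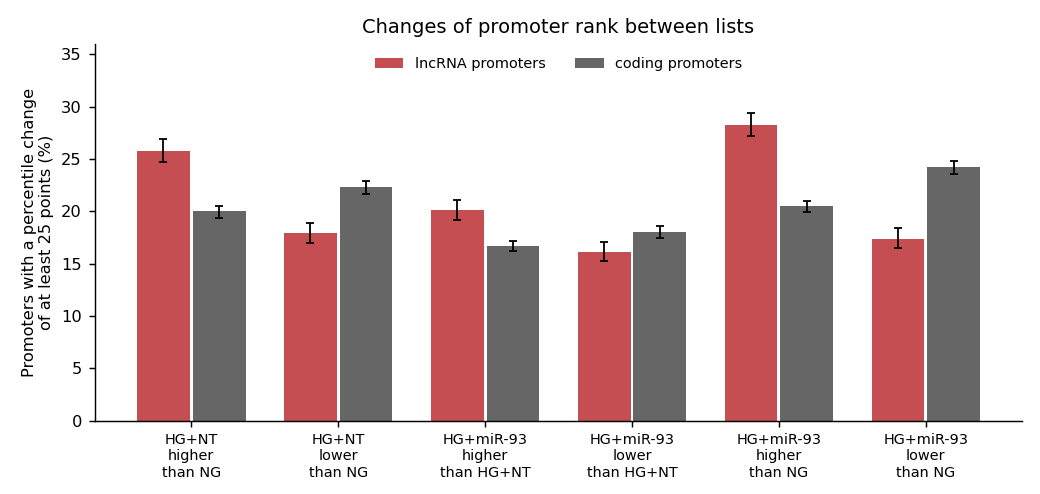
Share of lncRNA promoters (red) and coding promoters (grey) whose percentile was higher or lower by at least 25 points between lists, for the 3 pairs of lists. Bars start at 0 and carry 95% Wilson intervals; lncRNA promoters were more often higher than lower in the second list of each pair, with 25.8% and 17.9% for HG+NT against NG.

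By fragments alone few promoters were apart. The 95% intervals of the pileup did not overlap at 9 lncRNA promoters higher in HG+NT than in NG (0.140%, where 0.276% of all promoters passed) and at 18 lower (0.281%, where 0.687% passed). For HG+miR-93 against HG+NT there were 7 higher (0.109%, where 0.195% passed) and 10 lower (0.156%, where 0.651% passed). For HG+miR-93 against NG there were 6 higher (0.0935%, where 0.169% passed) and 30 lower (0.468%, where 1.52% passed). The share of lncRNA promoters was below that of all promoters in each of these. Intervals come apart less readily where fragments are few. The median pileup was 3.57, 3.38 and 3.50 at lncRNA promoters and 5.36, 4.67 and 4.66 at coding promoters. The part of this in the shares was not tested, so they cannot be read as smaller changes at lncRNA promoters.

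Over all 6419 lncRNA promoters the strongest summits of NG and HG+NT lay within 150 nt of each other at 13.2%, so most of these comparisons are between different stretches of DNA. Of the 650 lncRNA promoters with the strongest summit in the window in every list, 3 were lower in HG+NT than in NG (0.462%, where 0.446% of such promoters passed) and 6 were lower in HG+miR-93 than in NG (0.923%, where 1.77% passed). None was higher in HG+NT than in NG (0.270% passed) or in HG+miR-93 than in NG (0.0117% passed). For HG+miR-93 against HG+NT, 0 were higher (0.0117% passed) and 0 lower (0.505% passed), where a count of 0 allows up to 0.588%.

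The 6 promoters were named after their values were seen. They are *Snhg12*, Gm29398, Gm20109, E230001N04Rik, Gm47861 and BC002059. E230001N04Rik and Gm20109 start next to each other on opposite strands of chromosome 17 and share 1 peak, so they count as 1 observation. Its pileup was 10.3 in NG (6.51 to 15.4), 3.38 under HG+NT (1.80 to 5.77) and 4.28 under HG+miR-93 (2.68 to 6.47). NG was apart from both HG lists there. Gm29398 had 6.25 (3.42 to 10.5), 1.3 (0.422 to 3.03) and 1.17 (0.428 to 2.54), with NG again apart from both.

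Gm47861 had pileups of 12.1 (7.95 to 17.5), 5.97 (3.79 to 8.96) and 4.66 (2.99 to 6.94), and BC002059 had 9.38 (5.81 to 14.3), 5.19 (3.17 to 8.02) and 3.69 (2.22 to 5.77). In both, NG was apart from HG+miR-93 and met HG+NT. The summits of BC002059 lay at −185, −195 and −179 nt, so that nearly the same DNA was compared in the 3 lists. HG+NT and HG+miR-93 overlapped at all 6.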

How the data were processed

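DNase-Seq of mouse podocytes was re-analysed from 3 peak lists. The authors removed adapters with TrimGalore!, aligned to mm10 by Bowtie, dropped duplicate reads and ran MACS2 with the digested genomic DNA as control, after base calling in CASAVA 1.8.2 as the submitters' notes list it. The lists are joint sets, 1 for each condition, which points to pooled replicates. The deposited fold is a ratio at the summit, scaled fragments plus 1 over local input mean plus 1. The deposited −log10 p and −log10 q come from MACS2's Poisson test at the summit, the deposited score is a scaled value that was not used, and the deposited offset gives the summit's distance from the peak's start.

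Fragments and local mean were solved from fold and −log10 p, using that the local mean is a background value or a multiple of 0.02 fragments. At least 99.62% of the peaks of each list had 1 solution, and the solver was tested on simulated data. Depth relative to the input was 2.24, 3.85 and 5.15. A lncRNA gene had 1 window, at its 5′ end. The peak of highest fold overlapping it by 1 bp or more gave its value. For ranks by pileup or by −log10 p, the overlapping peak highest in that measure was taken instead. Peaks of equal −log10 p were ordered by fold for the 20000 strongest, and those equal in both were ordered at random with a fixed seed. Members and gene lists were chosen with earlier results of these data known. Genes were named if they were on the lists, had the 6 highest mean percentiles, or had the 3 largest rises or falls of a comparison under the conditions given in the text. Promoters strong in all 3 lists, those with intervals apart and miRNA or snoRNA hosts with a strong summit were named after their values were seen. Wilson intervals belong to shares and exact Poisson intervals to pileups. Single replicates and RNA were not analysed here. Some podocyte markers are not reported here and were left out of the check of the cells. Motifs near shared summits, and alternatives so marked in the closing section, were added after seeing the data. Scripts ran in Python 3.11.15 with scipy 1.17.1, pandas 2.3.3, numpy 2.4.6 and matplotlib 3.10.9.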

Additional observations from a re-analysis of the deposited data

How the results depend on the processing

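No paired analysis was possible because each condition is 1 pooled list and no test was made. Shares of lncRNA promoters with a strong summit (NG, then HG+NT, then HG+miR-93) were 0.840%, 0.871% and 0.716% with the 5000 strongest peaks, 4.90%, 6.16% and 6.30% with the 50000 strongest, 0.0156%, 0.0156% and 0% at a −log10 q of at least 2, 5.87%, 7.92% and 8.53% where the peak covered 50% of the window, and 4.22%, 3.63% and 4.01% with 1000 nt on either side. With all peaks, 23.0%, 24.9% and 25.2% of summits within 2500 nt lay within 500 nt. Median percentiles were 30.9, 32.9 and 29.7 by pileup, 22.8, 30.4 and 34.3 with summits in the window, and 33.0, 36.6 and 37.9 over every transcript TSS. By −log10 p they were 40.6 and 43.4 in the lists HG+NT and HG+miR-93 and they were 42.3 for NG with 1000 nt on either side. The median was not higher in HG+miR-93 than in NG by pileup, and the cause was not tested.

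Counts of lncRNA promoters higher and lower by 25 points were 857 and 698 (HG+NT against NG), 326 and 321 (HG+miR-93 against HG+NT) and 794 and 725 (HG+miR-93 against NG) by pileup, 256 and 134, 202 and 127, and 340 and 130 with summits in the window, where 1194 promoters remained, and 541 and 328, 349 and 281, and 651 and 276 at 50 points. More were higher than lower in each of these, but these counts were not made over all promoters. Dividing by the chromosome's median fold kept each count within 1.5 times. So did, chosen after seeing the data, leaving out chromosomes 8, 15 and 19 or members near any transcript of a coding gene. These omissions left 5591 and 6211 of 6419 promoters, so a larger change was unlikely from the outset. Without these chromosomes, the share higher among those that passed was 54.9%, 54.7% and 57.7% in the 3 comparisons. With them it was 59.0%, 55.5% and 61.9%. Non-overlapping pileups with summits in the window, also chosen later, numbered 0 and 3, 0 and 0, and 0 and 6. Percentiles of named genes moved by 25 points or more by pileup in 81 of 204 values and by −log10 p in 0 of 204. The median summit had 6 to 12 fragments, which limits what can be said of a single promoter.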
